A study of Homo sapiens with 25 samples.

Results

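The 3 D-type cyclin genes, CCND1, CCND2 and CCND3, and the genes of their kinases, CDK4 and CDK6, were described in DND-41 cells, an established human line from a T-cell acute lymphoblastic leukaemia, at 5 levels of histidine, an essential amino acid. The 5 rows were taken by gene symbol from the 31919 genes of the deposited table, and all 5 passed the filter on low values, which asked for 2 or more libraries at a normalized count of 10 or more and which 18799 genes passed. They were chosen with their own changes with histidine in view, such as the high CCND2 and low CCND3 at 12.5% histidine. Their values across histidine levels and days are thus given as a description. Calls of these 5 genes further down are not read as support.

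Strand-specific RNA libraries were made from cells collected on 2 days, which are given here as day 6 and day 9 as on the sample labels. On day 6 there were 3 libraries without histidine, 3 at 12.5%, 2 at 25%, 3 at 50% and 3 in medium with 100% histidine, the control level. On day 9 there were 3 at 12.5%, 3 at 25%, 2 at 50% and 3 at 100%. All 25 libraries came from the same line with no other agent named, and no label describes the replicates as separate cultures, so the spread between them may be technical. The group without histidine was sampled on day 6 only, and its replicate 1 carries day 6 in its title and day 9 in its time label.

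D-type cyclins are the regulatory subunits that bind and switch on CDK4 and CDK6 early in the G1 phase of the cell cycle. The active kinases phosphorylate the retinoblastoma protein RB1 and its relatives RBL1 and RBL2, which then let go of E2F transcription factors, and E2F proteins raise genes needed for DNA synthesis. INK4 proteins block CDK4 and CDK6, while CIP/KIP proteins take part in assembling the complexes and inhibit CDK2. Cyclin D3 and CDK6 are the forms best known from immature T cells and T-cell leukaemia, and NOTCH1, which carries activating mutations in DND-41, is known to act on CCND3.

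The cyclin genes resemble each other closely enough that the question arises whether reads of the abundant one could be counted for a rare one. Over their coding sequences CCND2 and CCND3 are 70% identical, CCND1 and CCND2 70.1%, CCND1 and CCND3 68.2%, and CDK4 and CDK6 68.4%. The stretches below hold the longest run of bases that CCND2 and CCND3 share, which is in capitals, with the bases around it, at coding positions 163 to 217 of CCND2 and 166 to 220 of CCND3 in the annotated transcripts (GENCODE 29, GRCh38).
CCND2: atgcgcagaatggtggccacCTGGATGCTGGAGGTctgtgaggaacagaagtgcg
CCND3: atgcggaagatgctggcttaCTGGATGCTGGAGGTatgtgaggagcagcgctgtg
The shared run is 15 bases long, and the longest between any pair of these cyclins or kinases is 23 bases, for CCND1 and CCND2. No window of 31 bases occurs in the annotated transcripts of more than 1 of the 5 genes.

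RefSeq's table of promoters (GRCh38.p14), which reaches from 250 bases before to 50 bases after a start, holds CCND3, CDK4 and CDK6. They were searched for 6 motifs on both strands, and the CDK4 promoter (chr12:57752261-57752560, minus strand) is shown because it holds 3 copies of the E-box CACGTG, which is in capitals and which MYC is known to bind.
CDK4: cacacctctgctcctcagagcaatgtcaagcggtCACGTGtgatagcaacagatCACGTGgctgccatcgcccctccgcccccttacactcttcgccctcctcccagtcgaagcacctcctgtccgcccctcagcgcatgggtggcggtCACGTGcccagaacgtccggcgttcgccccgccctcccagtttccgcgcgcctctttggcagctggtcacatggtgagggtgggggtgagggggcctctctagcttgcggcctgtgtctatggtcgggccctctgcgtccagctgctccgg
At least 1 E-box is found in 7.26% of the 35116 promoters and at least 3 in 0.0940%. A CDK6 promoter (chr7:92836524-92836823) holds 1 E-box and the CCND3 promoters none. A FOXO motif, TGTTTAC, is in 1 CCND3 promoter (chr6:42048639-42048938) and in 3.42% of all. The E2F motifs TTTGGCGC, TTTCGCGC and TTTCCCGC, the CSL motif TGGGAA of the NOTCH pathway, the cAMP response element TGACGTCA and the AP-1 motifs TGAGTCA and TGACTCA have no match in these windows, and are found in 2.74%, 24.0%, 1.85% and 4.95% of all promoters.

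In a library 14425 to 16263 genes reached a normalized count of 10, and normalized totals lay between 13.6 M and 16.1 M. T-lineage markers were abundant in every library, with CD3E between 11530 and 18477 and CD7 between 4160 and 10416 normalized counts, although CD2 reached at most 37.6 and PTCRA at most 8.14. In 6 of the 25 libraries the epithelial keratins KRT8, KRT18 and KRT19 summed to between 119 and 1406, and in the other 19 to between 0 and 60.3. The 6 are replicates 1 and 2 at 100% and replicates 1 and 2 at 50% on day 6, and replicates 1 and 3 at 25% on day 9. The control group of day 6 thus has a single library, replicate 3, with low keratin. In these bulk samples fewer cells of a type and less RNA per cell cannot be told apart.

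CCND3 was by far the most abundant of the cyclins. With a mean of 22588 normalized counts over the 25 libraries it ranked 37 of 31919 genes, and CDK6, with a mean of 12199, ranked 129. CDK4 averaged 1279.6 (rank 2873), CCND2 31 (rank 12251) and CCND1 7.67 (rank 16105). The ranks are of normalized counts, which grow with transcript length. After division by the length of 1 transcript of each gene, CCND3 made up between 99.7% and 100% of the summed D-cyclin level in every library, and CCND2 at most 0.303%.

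**Figure D1:**
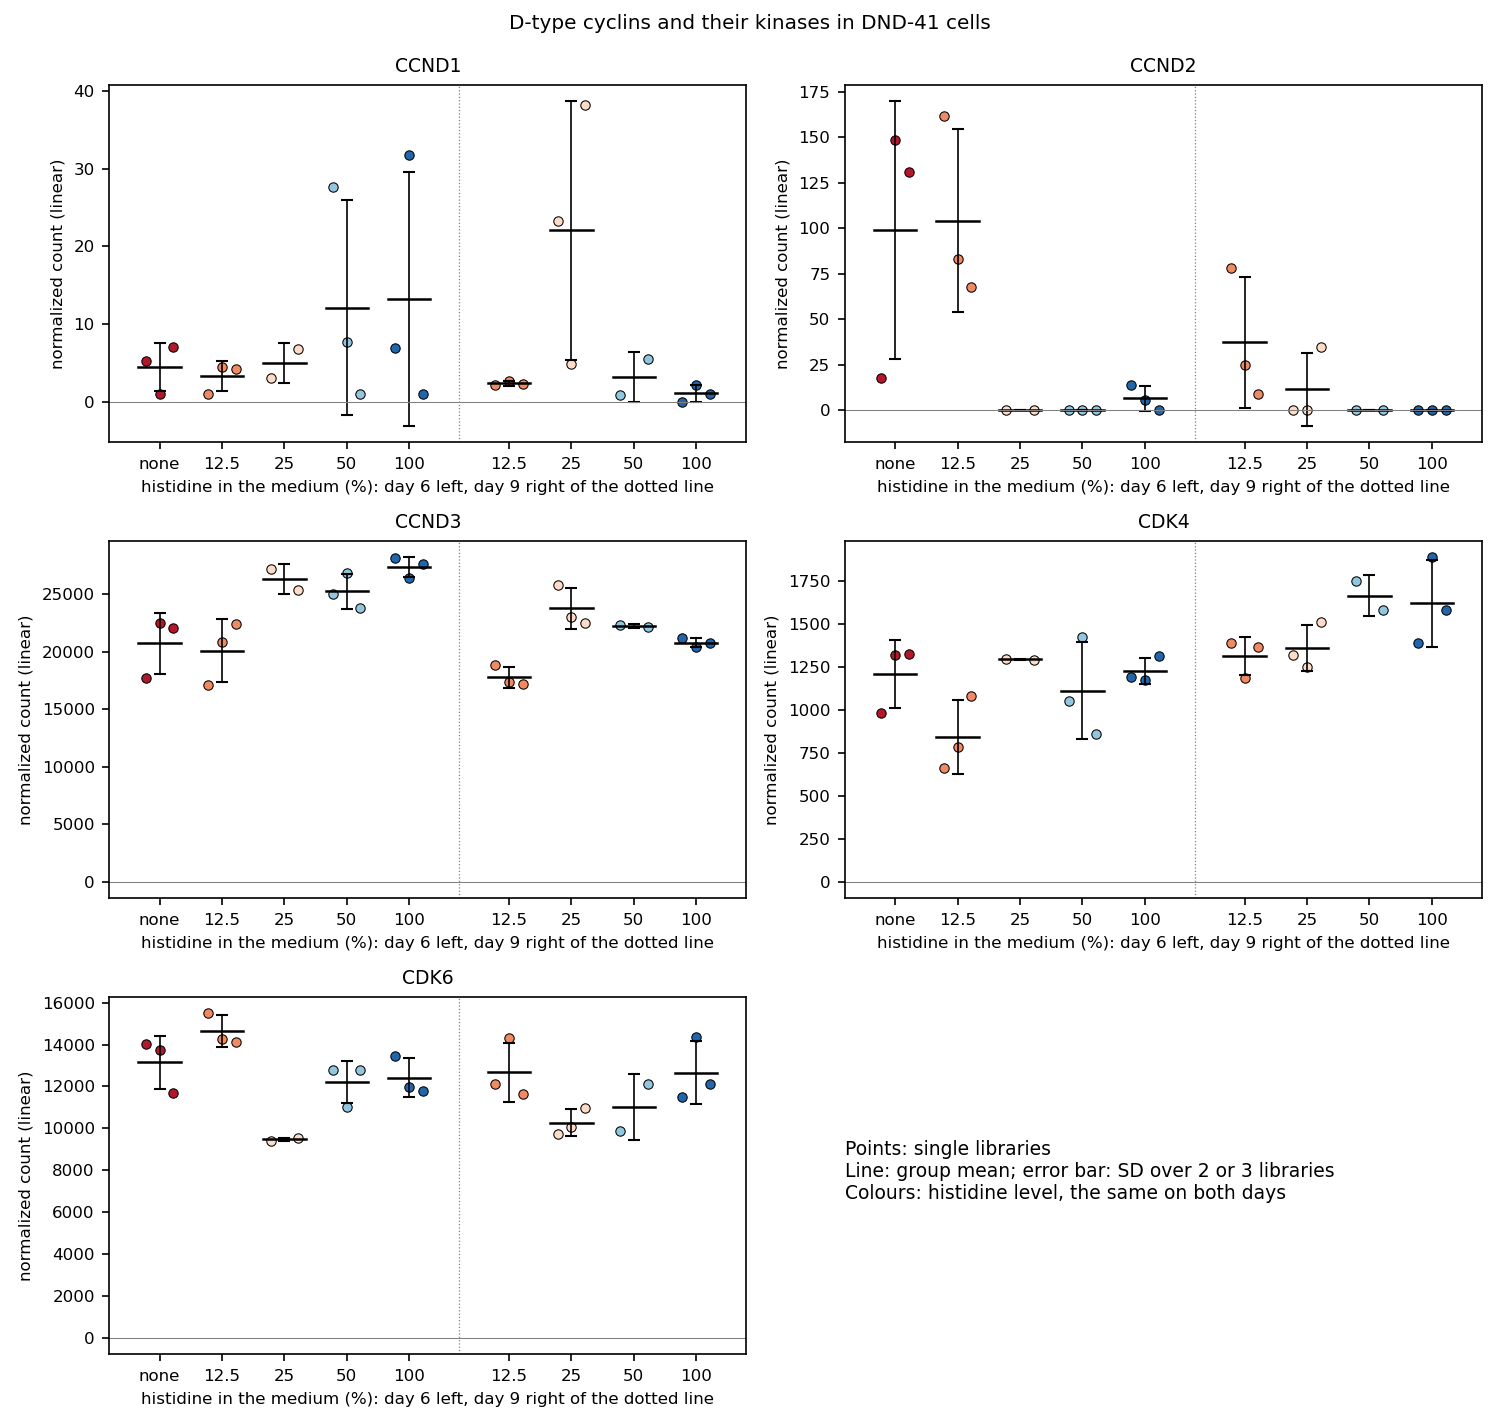
Normalized counts of CCND1, CCND2, CCND3, CDK4 and CDK6, 1 panel per gene, against histidine level, with day 6 left and day 9 right of the dotted line. Points are libraries, lines are group means and bars are SDs. CCND2 is at or near 0 in most libraries and reaches 161 at 12.5% histidine on day 6.

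CCND2 was detected mainly at the lowest histidine levels. Without histidine on day 6 it had 17.9, 148 and 131 normalized counts in replicates 1, 2 and 3, and at 12.5% it had 161, 83.2 and 67.7. It was listed at 0 in both libraries at 25% and in all 3 at 50%, and had 13.9, 6.01 and 0 in replicates 1, 2 and 3 at 100%. All 6 libraries with no or 12.5% histidine lay above all 8 libraries at the higher levels, with the lowest of them, the no-histidine library with conflicting day labels, at 17.9. Between no histidine and 100% on day 6, 42.7% of the 18799 tested genes had no overlap of libraries, and between 12.5% and 100%, 41.6%.

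On day 9 CCND2 had 78.0, 24.8 and 9.16 normalized counts at 12.5%, and 0, 0 and 34.6 at 25%. It was listed at 0 in both libraries at 50% and in all 3 at 100%. The libraries at 12.5% lay above those at 50% and 100%, and the highest library at 25% lay among them. Between 12.5% and 100% on day 9, 36.7% of all tested genes had no overlap. The gene, on chromosome 12 (4273772 to 4305350, plus strand, GRCh38), encodes cyclin D2, a form known from mature lymphocytes that enter the cell cycle.

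Group means of CCND2 on day 6 were 99.1 ± 70.9 without histidine and 104 ± 50.2 at 12.5%, against 6.64 ± 6.97 at 100% (SD, n = 3 each). The log2 change against 100%, on the log2(normalized count + 1) scale used throughout, was 3.93 ± 1.10 without histidine and 4.38 ± 1.10 at 12.5% (SE). These sizes depend on the low control values. A pseudocount of 8 gave 2.61 and 2.97. Leaving out replicate 3 of the controls, the library at 0, gave 2.82 and 3.26, and leaving out the no-histidine library with conflicting day labels gave 4.90. Between no histidine and 12.5% the log2 difference was -0.45 ± 1.10, less than its SE. These SEs pool the spread of all 9 groups, including those with every CCND2 value at 0, so they may understate it where CCND2 was detected. At 12.5% on day 9 the mean was 37.3 ± 36.1, and no fold is given against controls listed at 0.

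The control values of CCND2 above 0 came from libraries with keratin RNA. Of its 3 values at 25% or more histidine that were above 0, namely 34.6, 13.9 and 6.01, each lay in 1 of the 6 keratin-high libraries. Without those 6 libraries the control group of day 6 is a single library at 0, and the fitted log2 changes, which then depend on the pseudocount, were 6.17 and 6.61. With the keratin sum as a covariate they were 4.75 and 4.76. The 5.8S rRNA level also differed, at 120 to 242 normalized counts without histidine and 74.8 to 88.2 at 12.5%, against 153 to 1181 in the controls, and with it as a covariate the changes were 3.59 ± 1.28 and 3.81 ± 1.5. The part of either in the CCND2 values was not tested further.

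CCND3 was lower at the lowest histidine levels. On day 6 it had 17706, 22509.5 and 22039.8 normalized counts without histidine and 17082, 20813 and 22409 at 12.5%, in replicates 1, 2 and 3. It had 27217 and 25378 at 25%, 25022, 26877 and 23846 at 50%, and 28119.7, 26452 and 27642 at 100%. The 6 libraries with no or 12.5% histidine all lay below the 8 others, which overlapped among themselves. Against 100% on day 6, 42.7% and 41.6% of all tested genes had no overlap without histidine and at 12.5%.

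On day 9 CCND3 had 18841, 17333 and 17223 normalized counts at 12.5%, 25802, 23046 and 22481 at 25%, 22365 and 22142 at 50%, and 21187, 20439.6 and 20734 at 100%. The libraries at 12.5% were again below all others of the day, while those at 25% and 50% lay above the controls of day 9. No overlap with these controls was found for 36.7%, 34.8% and 17.9% of all tested genes at 12.5%, 25% and 50%. CCND3 lies on chromosome 6 (41934933 to 42050357, minus strand) and encodes cyclin D3.

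Mean CCND3 was 20752 ± 2648 without histidine and 20101 ± 2734 at 12.5%, against 27404 ± 859 at 100% on day 6 (SD, n = 3 each), a fold of 0.753 and 0.729. The log2 changes were -0.41 ± 0.10 and -0.46 ± 0.10 (SE), and those at 25% and 50% were -0.06 ± 0.11 and -0.12 ± 0.10. On day 9 the changes against 100% were -0.22 ± 0.10 at 12.5%, 0.19 ± 0.10 at 25% and 0.10 ± 0.11 at 50%. The controls differed between the days, with 20787 ± 376 on day 9 against 27404 ± 859 on day 6, a log2 difference of -0.40 ± 0.10. The mean at 12.5% on day 9, 17799 ± 904, was the lowest of the 9 groups.

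Another scaling of the libraries changed the size of the CCND3 differences. After quantile normalization the log2 changes of day 6 were -0.18 without histidine and -0.12 at 12.5%, and after upper-quartile rescaling -0.34 and -0.37. Without the no-histidine library with conflicting day labels the change without histidine was -0.30.

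CCND1, which encodes cyclin D1, the form known from epithelial and many other adherent cells, was near the detection limit in most libraries. On day 6 it had 5.27, 1.02 and 7.00 normalized counts without histidine, 1.02, 4.5 and 4.23 at 12.5%, 3.10 and 6.76 at 25%, 27.6, 7.71 and 1.03 at 50%, and 6.97, 31.7 and 0.917 at 100%. On day 9 it had 2.11, 2.66 and 2.29 at 12.5%, 23.2, 4.81 and 38.2 at 25%, 0.910 and 5.48 at 50%, and 0, 2.17 and 1.03 at 100%. The highest values, 23.2 and 38.2 at 25% on day 9, 27.6 at 50% and 31.7 at 100% on day 6, each stood in a group whose lowest library was at 4.81 or below.

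These 4 values lay in keratin-high libraries. No other CCND1 value reached 10, so the gene passed the filter on low values only through them. CCND1 lay between 6.97 and 38.2 in the 6 keratin-high libraries, with a median of 25.4, and between 0 and 7.00 in the other 19, with a median of 2.29. The log2 change at 25% on day 9, 3.25 ± 0.97, was 1.64 without those 6 libraries and 1.5 with the keratin sum as a covariate. On day 6 the change without histidine was -0.77 ± 0.97, but 1.28 without the keratin-high libraries, and that at 12.5% was -1.04, but 1.01. Of the fibroblast list, COL1A1, COL1A2 and DCN reached at most 26.6, 20.6 and 14.6 normalized counts in any library, while PDGFRB had 617 to 1489.7 in the 25 libraries, and the epithelial genes EPCAM and CDH1 at most 20.8 and 64.0. CCND1 lies on chromosome 11 (69641087 to 69654474, plus strand) and overlaps LTO1 on the other strand.

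**Figure D2:**
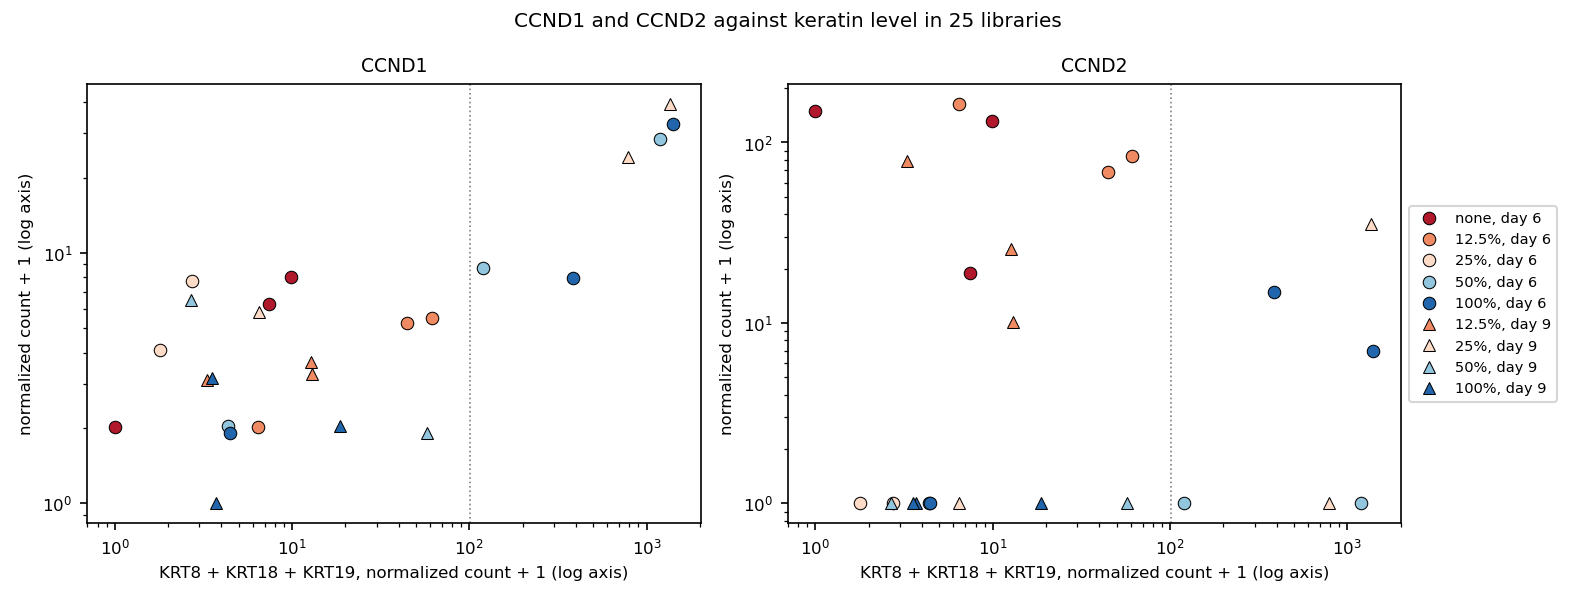
Normalized counts + 1 of CCND1 and CCND2 against the summed counts + 1 of KRT8, KRT18 and KRT19 in the 25 libraries, on log axes, with the dotted line at 100. CCND1 is between 6.97 and 38.2 in the 6 libraries right of the line, and CCND2 reaches 161 only among the libraries left of it.

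Among the kinases, CDK4 was lower at 12.5% histidine on day 6 than in control medium. At 12.5% it had 660.1, 784 and 1079.7 normalized counts in replicates 1, 2 and 3, and without histidine it had 984, 1322 and 1325. It had 1297 and 1292 at 25%, 1055, 1422 and 862 at 50%, and 1193, 1176 and 1314 at 100%. Every library at 12.5% lay below every control library, and in this comparison 41.6% of all tested genes had no overlap. The libraries at 12.5% overlapped those without histidine and at 50%, and the libraries without histidine lay on both sides of the controls. CDK4 encodes the kinase on chromosome 12 (57747727 to 57756013, minus strand).

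CDK4 averaged 841 ± 216 at 12.5% on day 6, against 1228 ± 75.4 in control medium (SD, n = 3 each), a fold of 0.672 and a log2 change of -0.57 ± 0.17 (SE). Without histidine the mean was 1210.2 ± 196 and the change -0.03 ± 0.17. The log2 difference between no histidine and 12.5% was thus 0.54 ± 0.17. Leaving out replicate 1 at 12.5%, the lowest library, gave -0.41 against the controls, and leaving out replicate 3 gave -0.77.

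Day 9 gave a smaller difference. On that day CDK4 had 1391, 1187 and 1367 normalized counts at 12.5%, 1318, 1252 and 1510.4 at 25%, 1752 and 1580.3 at 50%, and 1391, 1892 and 1583 at 100%, with changes of -0.29, -0.25 and 0.05 at the 3 lower levels. The groups at 12.5% and 25% overlapped the controls. Control cells had 1622 ± 253 on day 9 against 1228 ± 75.4 on day 6, a log2 difference of 0.39 ± 0.17.

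CDK6 did not follow the histidine level in order. On day 6 it had 14011, 13753 and 11688 normalized counts without histidine, 15516, 14243 and 14142 at 12.5%, 9414 and 9532 at 25%, 12787, 11038 and 12800.2 at 50%, and 13472, 11971 and 11791 at 100%. On day 9 it had 12135, 14288 and 11632 at 12.5%, 9735, 10080.2 and 10972 at 25%, 9890.3 and 12136 at 50%, and 11510.0, 14343 and 12098 at 100%. On both days all libraries at 25% lay below the controls, and on day 6 all libraries at 12.5% lay above them. Of all tested genes, 45.0% and 34.8% had no overlap between 25% and 100% on days 6 and 9. Between 12.5% and 100% on day 6 it was 41.6%.

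Mean CDK6 on day 6 was 14634 ± 766 at 12.5% (n = 3) and 9473 ± 83.6 at 25% (n = 2), against 12412 ± 923 at 100% (n = 3). The log2 changes were 0.24 ± 0.10 and -0.39 ± 0.12 (SE), while no histidine gave 0.08 ± 0.10 and 50% gave -0.02. On day 9 the change was -0.30 ± 0.10 at 25%, with 10262 ± 639 at 25% against 12650.0 ± 1495 at 100%, and 0.00 at 12.5%. Directly against 25%, CDK6 at 12.5% was higher by 0.63 ± 0.12 on day 6 and 0.30 ± 0.10 on day 9. Its libraries did not overlap on either day, which held for 48.1% and 26.6% of all tested genes. Under quantile normalization the day 6 changes were 0.30 without histidine and 0.40 at 12.5%. CDK6 spans chromosome 7 from 92604921 to 92836594 on the minus strand, and in mice its loss is known to impair the growth of thymocytes.

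**Figure D3:**
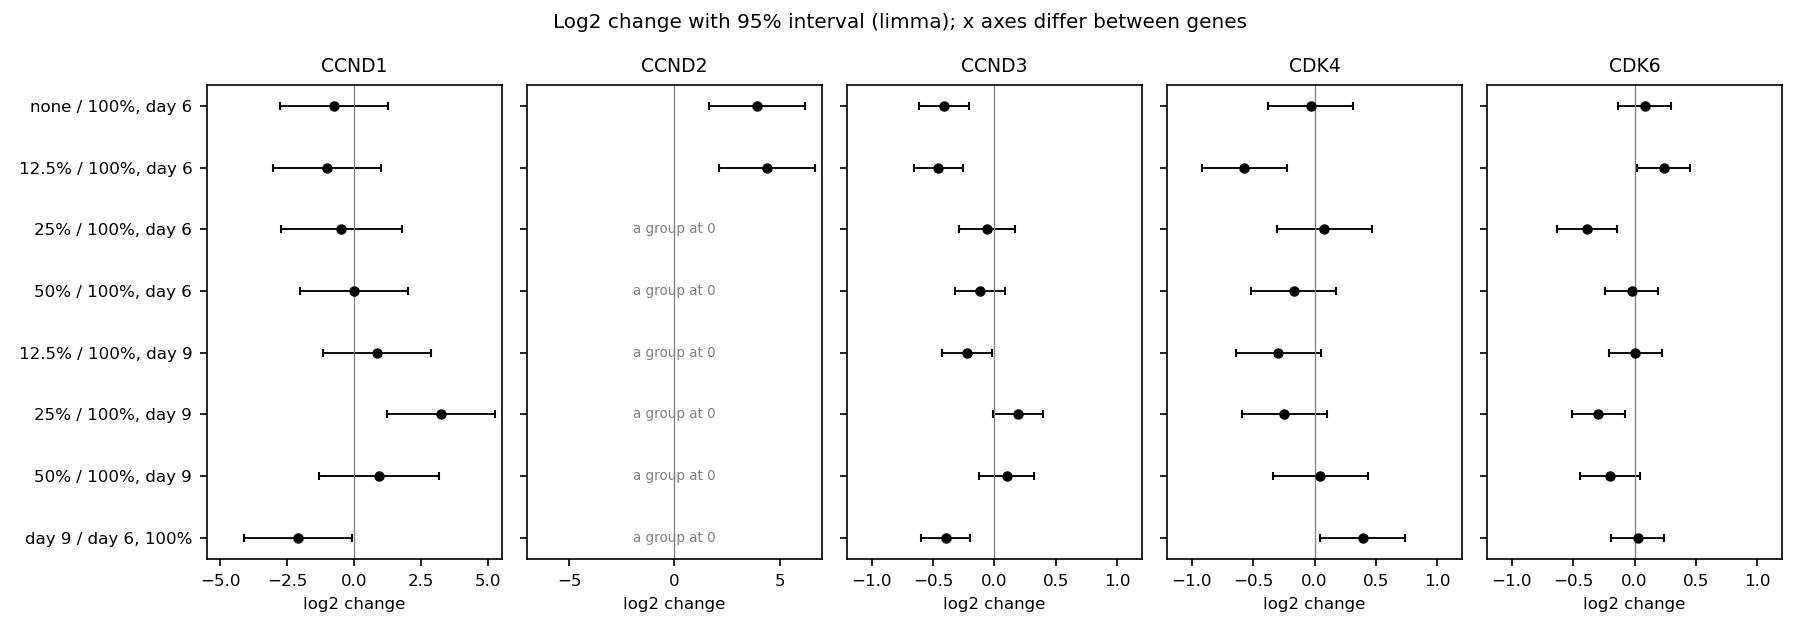
Log2 changes of CCND1, CCND2, CCND3, CDK4 and CDK6 in 8 comparisons, 1 panel per gene with its own axis, with 95% intervals from the limma fit. The change of CCND3 is -0.41 without histidine and -0.46 at 12.5% on day 6, and no change is drawn for CCND2 where a group is at 0. The CCND2 intervals use a spread that also pools the groups at 0.

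In the order of group means, CCND3 was lowest at 12.5% on day 9, followed by 12.5% and no histidine on day 6 and by the controls of day 9. Within these 4, adjacent groups overlapped. The mean of 50% on day 9 came next, with libraries apart from those of both adjacent groups but within the range of no histidine and 12.5% on day 6, and above it came 25% on day 9 and then 50%, 25% and 100% of day 6. For CDK6 the 25% group of day 6 was lowest and the 12.5% group of day 6 highest. Each had no overlap with its neighbour, while the 7 groups between them overlapped in turn. Neighbours were set by sorting these same means. No overlap was found for 29.1% of all tested genes between no histidine and 12.5% on day 6. Between 50% and 100% on day 9 it was 17.9%. For the other neighbours without overlap no such share was computed. The 12.5% libraries of day 6, from 14142 up, still overlapped 12.5% and 100% on day 9, which reached 14288 and 14343. In CDK4, from 12.5% on day 6 to 50% on day 9, and in CCND1, from 100% to 25% on day 9, all neighbouring groups overlapped. In CCND2 the groups above 0 ran from 100% on day 6 through 25% and 12.5% on day 9 to no histidine and 12.5% on day 6, also with overlapping neighbours.

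The make-up of the kinase pool moved with these levels. Per kilobase of 1 annotated transcript, CDK6 made up 75.8% ± 5.38 of the summed CDK4 and CDK6 at 12.5% on day 6, against 64.3% ± 2.65 in control medium (SD, n = 3 each), with libraries between 70.1% and 80.8% against 61.6% and 66.9%. Without histidine the share was 66.0% ± 5.37, at 25% it was 56.7% ± 0.272 and at 50% 66.4% ± 7.47. On day 9 it was 63.2% ± 4.42 at 12.5%, 57.5% ± 1.35 at 25%, 54.0% ± 5.39 at 50% and 58.3% ± 1.18 at 100%. A share within a library does not depend on a single scaling factor for that library, but it does on quantile normalization, which was not applied to it.

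The summed D cyclins per kilobase, which were almost all CCND3, stood to the summed kinases at 5.81 ± 0.701 without histidine and 5.8 ± 0.718 at 12.5% on day 6, against 7.92 ± 0.134 at 100%. The libraries of both low levels lay between 4.97 and 6.44, below the 7.78 to 8.04 of the controls, and the ratios at 25% and 50% were 8.76 ± 0.468 and 7.63 ± 0.224. On day 9 the ratio was 4.96 ± 0.331 at 12.5%, 7.46 ± 0.976 at 25% and 6.10 ± 0.315 at 50%, against 5.40 ± 0.781 at 100%, with overlap between 12.5% and 100%. Levels between genes depend on the transcript chosen, since CDK6 was set to 11612 bases and CDK4 to 2076. With coding lengths, 978 and 909 bases, CDK6 was between 84.0% and 95.6% of the kinases in all libraries, and the ratio of cyclins to kinases had group means of 1.42 to 2.70. On day 6 the mean CDK6 share was then 94.1% at 12.5% against 90.3% at 100%, so the size of that shift depends on the lengths used.

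**Figure D4:**
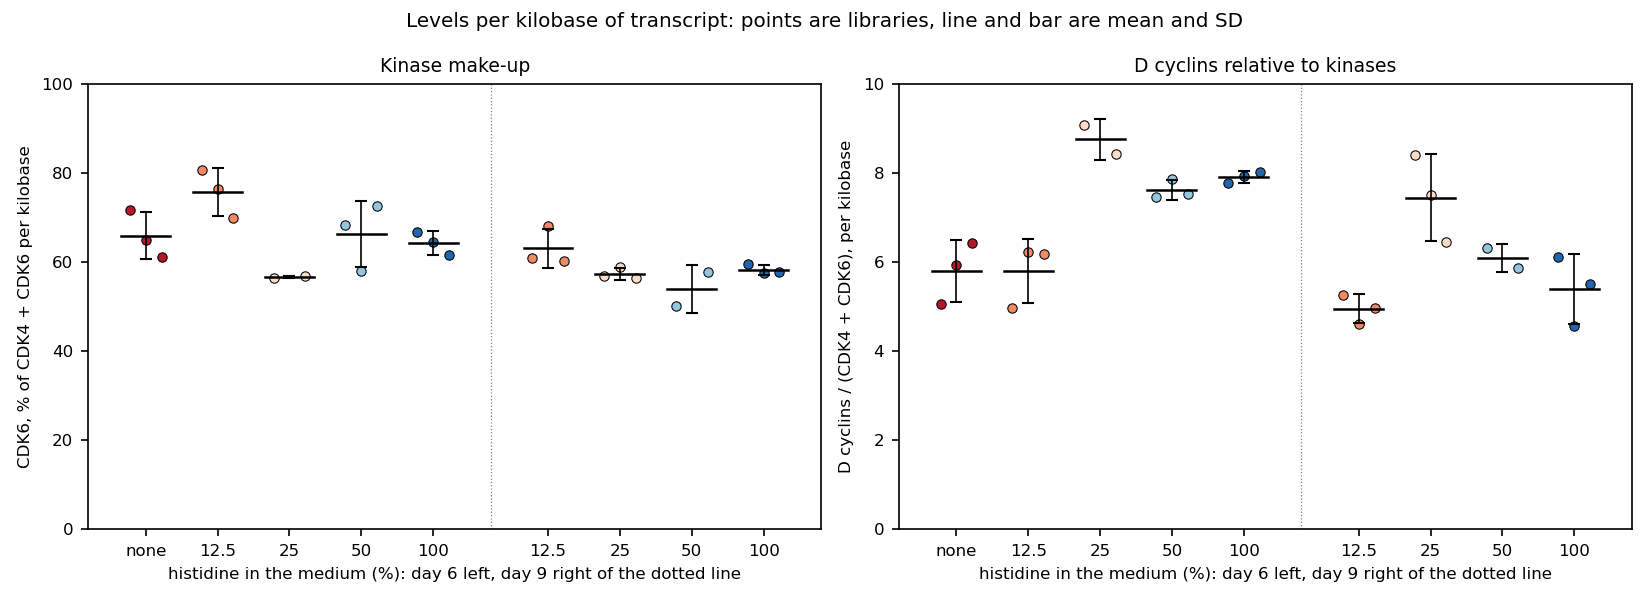
CDK6 as a percentage of CDK4 + CDK6 per kilobase, and the ratio of the D cyclins to CDK4 + CDK6 per kilobase, by histidine level and day. Points are libraries, lines are means and bars are SDs. At 12.5% on day 6 the mean CDK6 share is 75.8%, against 64.3% at 100%.

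Set beside all genes, the number of these 5 genes past limma's adjusted p of 0.05 in each comparison was as follows, and since the genes were chosen on these comparisons nothing is read from it. Against 100% on day 6 it was 2 of 5 without histidine (CCND2 and CCND3), where 29.8% of the 18799 tested genes passed, and 3 of 5 at 12.5% (with CDK4), where 27% passed. At 25% CDK6 alone passed, beside 13.7% of all genes, and at 50% none did, beside 0% of all genes in the limma test, although an unadjusted p under 0.05 was found for 695 genes. Among the day 9 comparisons CCND2 passed at 12.5%, beside 20.8% of all genes, CCND1 and CDK6 at 25%, beside 18.2%, and none at 50%, beside 0.00532%, with 906 genes at an unadjusted p under 0.05. Between no histidine and 12.5% CDK4 passed, beside 15.3% of all genes, and between day 9 and day 6 of the controls CCND3 passed, beside 2.17%. Between 12.5% and 25%, a comparison added after the data were seen, all but CCND1 passed on day 6, beside 17.8% of all genes, and CCND3 passed on day 9, beside 6.82%.

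Many of these calls were lost under other settings. Many of the settings leave out a library of another group, which leaves the log2 change as it is. The tallies are thus not counts of separate checks. Of 38 alternatives, CCND2 passed in 37 without histidine, not without replicate 3 of the controls. At 12.5% on day 6 it passed in 37, not with the 5.8S covariate. On day 9 it passed in all 38 at 12.5%, where every control library was listed at 0. CCND3 passed in 36 at both low levels of day 6, not after quantile normalization or without the keratin-high libraries, and in 28 between days, where leaving out any 1 of the 6 control libraries ended the call. CDK4 passed in 34 at 12.5%, not without replicate 3 of the controls, replicate 1 at 12.5% or the keratin-high libraries or with the 5.8S covariate. Between no histidine and 12.5% it passed in 31, not without replicate 1 or 2 at 12.5% or replicate 2 or 3 without histidine. CDK6 passed in 31 at 25% on day 6, not without replicate 1 of the controls, either library at 25% or the keratin-high libraries. On day 9 it passed in 14 at 25%, with the call ended among others by upper-quartile rescaling, by quantile normalization, by the replicate block and by leaving out replicate 2 or 3 of the controls or replicate 1 or 2 at 25%. CCND1 passed in 31 of 37 at 25% on day 9, not without the keratin-high libraries, with the keratin covariate, or without replicate 1 or 3 of either group. Between 12.5% and 25%, the comparison added after the data were seen, CCND2 and CDK6 passed in all 38 on day 6. These are the groups with the highest and lowest CDK6 means of the 9, and CCND2 was at 0 in both 25% libraries. CCND3 passed in 33 and CDK4 in 32, each lost without either 25% library or without replicate 1 at 12.5%, and CDK4 also without replicate 2 at 12.5%. The CCND3 call was also lost after quantile normalization, where the log2 change was -0.02, against -0.40 in the main fit. On day 9 CCND3 passed in 36, not without replicate 1 at 25% or the keratin-high libraries.

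A search of the 10753 genes with a mean of at least 50 normalized counts gave, for each of the 5, the genes whose log2 values were most alike over the 25 libraries by Pearson's r. They were NDUFAB1 (0.96), HAX1 (0.95) and RPSA (0.94) for CDK4, C2CD4B (0.88), PNPLA2 (0.88) and CCDC85C (0.87) for CCND3, and ANTXR1 (0.87), FOSL2 (0.86) and SCN3A (0.85) for CCND2. CDK6 was most like GCN1, ANKFY1 and PARP4 (0.85 each), and CCND1 most like the keratins KRT8 (0.78) and KRT18 (0.77), with the next gene, ITFG2, at 0.55. The libraries share groups and scaling, so these values only describe the table.

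Of the other genes of the pathway 124 were listed and 122 tested, by limma's adjusted p over all 18799 genes. Without histidine on day 6, 72 of them passed the test (59.0%), 19 higher and 53 lower, where 13.3% of all genes rose and 16.5% fell. For 12.5% on day 6, 65 passed (53.3%), 22 higher and 43 lower, against 11.7% and 15.3% of all genes, and at 12.5% on day 9, 49 passed (40.2%), 23 higher and 26 lower, against 9.35% and 11.5%. Median log2 changes were -0.18, -0.09 and -0.04, where the median over all genes was 0.03, 0.04 and 0.03. Without the keratin-high libraries 38 passed at 12.5% on day 6, with 1 library left in the control group. The day 6 comparisons share their controls.

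E2F target genes of G1/S fell almost throughout without histidine, 19 of 20, and none rose, with a median of -1.09. TYMS, which makes thymidylate, averaged 2396 ± 215 normalized counts without histidine, against 10781 ± 349 in control medium (n = 3 each), a log2 change of -2.17 ± 0.12 (limma, adjusted p = 4.54e-12). TK1, which salvages thymidine, fell by 1.94 (adjusted p = 1.49e-09), and MCM2, a subunit of the replicative helicase, had 2611 ± 248 against 9385 ± 493, a change of -1.85 ± 0.10 (adjusted p = 1.69e-12). RRM2, a ribonucleotide reductase subunit, was the gene of the list that did not pass, at -0.59 ± 0.49.

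At 12.5% the E2F targets moved the same way in most cases. On day 6, 15 fell and 1 rose, with a median of -0.54, and on day 9, 12 fell and none rose, with a median of -0.43. MCM2 fell by 1.66 on day 6 (adjusted p = 7.54e-11) and by 1.35 on day 9 (adjusted p = 1.82e-09), and TYMS fell by 1.47 (1.49e-08) and 1.13 (5.44e-07). CDT1, which loads the helicase on DNA, fell by 1.17 on day 6 (adjusted p = 2.52e-07). UHRF1, a factor that maintains DNA methylation, was the gene that rose, by 0.35 (adjusted p = 0.00339).

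The cyclins of later phases and their kinases fell without histidine, all 7 of 7, with a median of -1.19. CCNA2, the S and G2 cyclin, had 1091 ± 44.0 normalized counts without histidine, against 3475 ± 149 in control medium, a log2 change of -1.67 ± 0.11 (limma, adjusted p = 8.55e-11, n = 3 each). CCNE1, the cyclin of CDK2 at the start of S phase, had 107 ± 22.6 against 316 ± 39.4 (-1.57 ± 0.16, adjusted p = 4.34e-08), and the mitotic kinase CDK1 had 792 ± 25.1 against 2109 ± 40.7 (-1.41 ± 0.11, adjusted p = 1.25e-09). CDK4 and CDK6 had changes of -0.03 and 0.08 in the same libraries.

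At 12.5% this group was mixed, with 4 lower and 1 higher on day 6 (median -0.33) and 2 lower and 1 higher on day 9 (median -0.23). The mitotic cyclin CCNB1 fell by 0.73 on day 6 (limma, adjusted p = 0.0166) and by 0.89 on day 9 (adjusted p = 0.00558), while CCNB2, also a mitotic cyclin, rose by 0.39 (0.0197) and 0.44 (0.0106). CDK2 fell by 0.45 on day 6 (adjusted p = 0.00573) and by 0.41 on day 9 (0.0147), and CCNE1 by 0.48 on day 6 (0.0267). Several of these calls rest on single libraries or on scaling. On day 6 CCNB1 and CDK2 did not pass without replicate 1 at 12.5% (adjusted p = 0.139 and 0.0598), CCNB2 did not without replicate 3 at 12.5% (0.164) or replicate 2 of the controls (0.0614), and CCNE1 did not without replicate 1 or 2 at 12.5% (0.0937 and 0.118), replicate 2 of the controls (0.126) or after upper-quartile rescaling (0.0658). On day 9 CDK2 did not pass without replicate 3 at 12.5% (0.0580), nor CCNB2 without replicate 1 (0.0601). Without the keratin-high libraries 0 of the 7 passed on day 6.

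RB1, its relatives and the E2F factors fell in part without histidine, 6 of 13 lower and none higher (median -0.24). E2F2, an activating factor, had 1311 ± 80.3 normalized counts without histidine, against 4342 ± 232 in control medium (log2 change -1.73 ± 0.08, limma, adjusted p = 2.33e-13, n = 3 each). E2F8, a repressing factor, fell by 1.32 (1.20e-08) and the RB1 relative RBL1 by 1.21 (adjusted p = 5.86e-10). At 12.5% on day 6, 5 of 13 were lower, among them the activating factor E2F1, which fell by 0.73 (adjusted p = 8.35e-07). The dimer partner TFDP1, at -0.31 (0.00517), did not pass without the keratin-high libraries (0.0589) or with the 5.8S term (0.0513), and E2F2, at -0.28 (0.0120), did not without replicate 2 of the controls (0.0659), without replicate 1 at 12.5% (0.0894) or after upper-quartile rescaling (0.100). Under upper-quartile rescaling 2 of the 13 rose and 2 fell at 12.5% on day 6, and without the keratin-high libraries 1 fell.

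On day 9 at 12.5%, 2 of these 13 were lower and 1 higher. E2F1 fell by 0.35 (limma, adjusted p = 0.00337). The repressing factor E2F5 was at -0.56 (adjusted p = 0.0197), but did not pass without replicate 2 of the controls (0.147) or replicate 1 at 12.5% (0.122), and RB1 was at 0.32 (0.0190), but did not without replicate 3 of the controls (0.0878) or replicate 2 at 12.5% (0.120).

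Of the inhibitors, 4 of 6 tested fell without histidine and none rose (median -0.54). CDKN1A, the CIP/KIP protein p21 that p53 is known to raise, had 193 ± 14.5 normalized counts without histidine and 316 ± 71.3 at 12.5%, against 614 ± 38.4 in control medium on day 6 (log2 changes -1.66 ± 0.13 and -0.98 ± 0.13, limma, adjusted p = 1.22e-09 and 9.81e-06). The INK4 gene CDKN2C fell by 0.86 without histidine (adjusted p = 8.92e-07) and CDKN1B, which encodes p27, by 0.56 (5.01e-05) and, at 12.5% on day 6, by 0.41 (0.00159). The fall of CDKN2C at 12.5%, 0.30 (0.0399), did not hold without replicate 1 or 3 of the controls (0.191 and 0.0550), replicate 1 or 2 at 12.5% (0.242 and 0.0524) or after rescaling (0.0927), and CDKN1B did not pass at 12.5% without the keratin-high libraries (0.0843). CDKN2A, the INK4 gene often lost in this leukaemia, was present at 3444 ± 676 without histidine against 3823 ± 334 in control medium, a change of -0.17 that did not pass. At 12.5% on day 9 the INK4 gene CDKN2D was the inhibitor that passed, with 931 ± 46.5 against 589 ± 144 (0.69 ± 0.16, adjusted p = 0.00264).

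**Figure D5:**
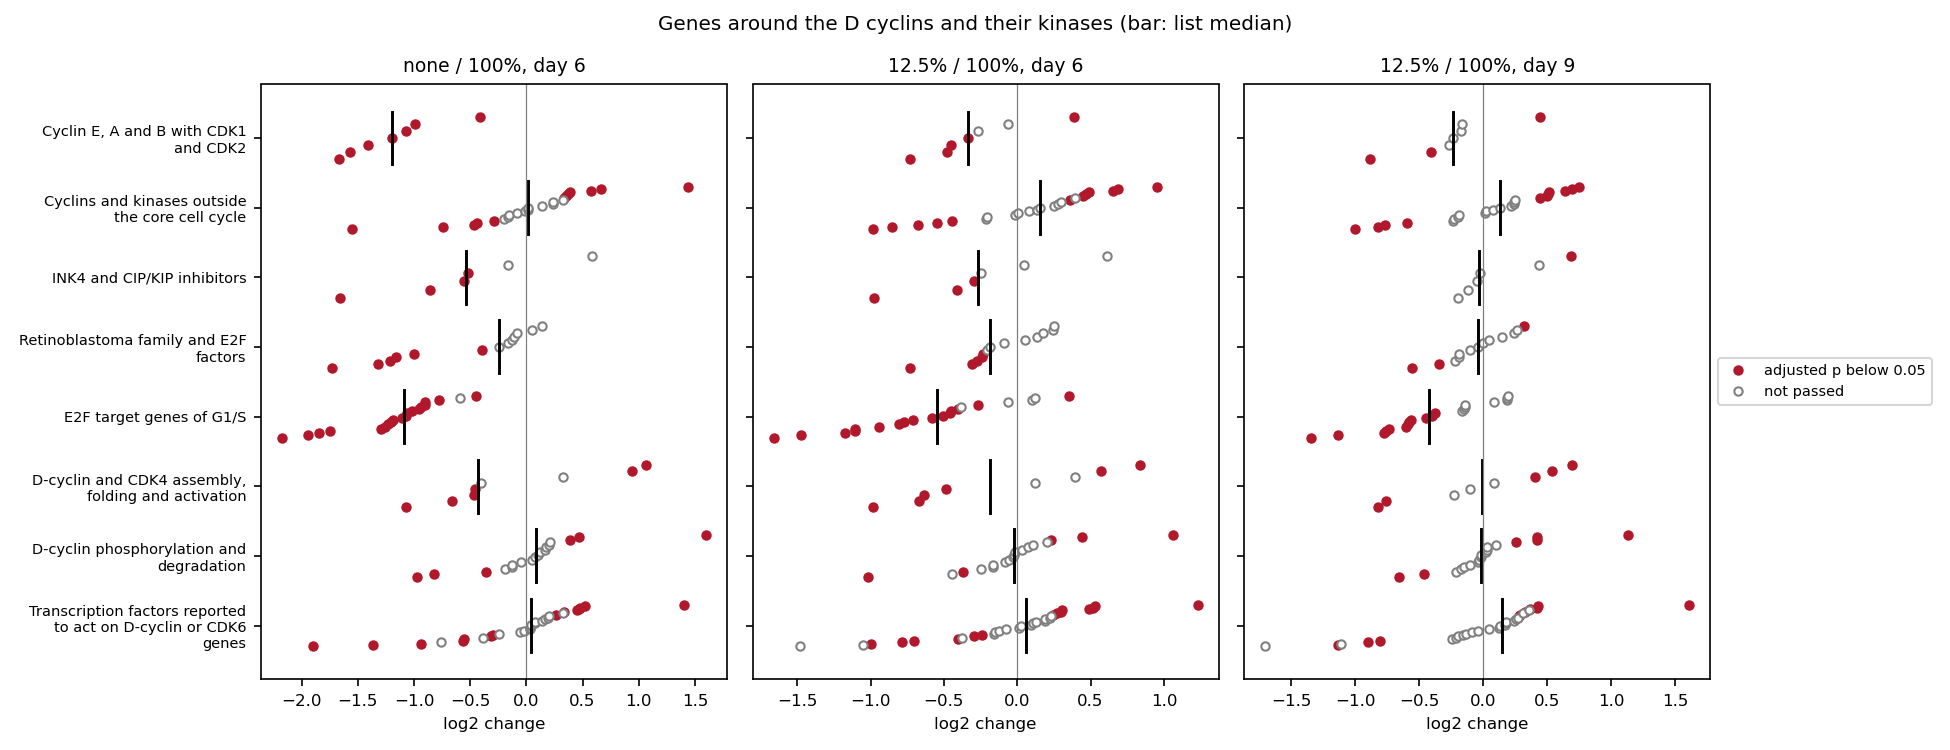
Log2 changes of pathway genes, grouped in 8 lists, without histidine on day 6 and at 12.5% on days 6 and 9, each against 100% of the same day. Filled points passed limma's adjusted p of 0.05, and bars are list medians, which are -1.09, -0.54 and -0.43 for the E2F targets.

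Genes of assembly and activation of the D-cyclin kinases moved both ways, with 2 higher and 4 lower of 8 without histidine, or 3 and 3 after upper-quartile rescaling. The HSP90 chaperones, which together with CDC37 fold CDK4, were higher, HSP90AB1 with 29279 ± 2385 normalized counts without histidine, against 13984 ± 831 in control medium (1.06 ± 0.13, limma, adjusted p = 5.27e-07), and HSP90AA1 by 0.94 (8.98e-06) and, at 12.5% on day 6, by 0.83 (7.34e-05). CDC25A, a phosphatase that activates cyclin kinases, fell by 1.07 without histidine (adjusted p = 1.38e-08). At 12.5% on day 6, 2 rose and 4 fell. CDK7, part of the kinase that phosphorylates CDK4 and CDK6, fell by 0.99 (0.000148) and the co-chaperone FKBP5 by 0.67 (5.41e-05). On day 9, with 3 higher and 2 lower, CDC37 fell by 0.76 (2.86e-07) and CDK7 by 0.82 (0.00111), while CCNH, the cyclin of CDK7, rose by 0.70 (0.00149).

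Of 18 genes that phosphorylate or degrade D cyclins, 12 did not pass without histidine, 3 rose and 3 fell (median 0.09), but 6 rose and 3 fell after upper-quartile rescaling and 7 and 3 after quantile normalization. DYRK1B, a kinase known to phosphorylate cyclin D1 ahead of its breakdown, had 699 ± 94.8 normalized counts without histidine and 480.0 ± 41.7 at 12.5%, against 239 ± 91.8 in control medium on day 6, and 581 ± 24.9 at 12.5% against 265 ± 17.7 on day 9. Its log2 changes were 1.60 (limma, adjusted p = 3.17e-07), 1.06 (0.000132) and 1.13 (8.36e-05). FBXO4, an F-box protein that targets cyclin D1, fell by 0.97 (0.000261) and 1.02 (0.000244) on day 6, and at 12.5% on day 9 by 0.66 (0.0128), which did not pass without replicate 3 of the controls (0.0524) or replicate 2 at 12.5% (0.0914). CDC20, the activator, and CDC27, a subunit, of the anaphase-promoting complex fell, the first by 0.83 without histidine (7.62e-05) and the second by 0.46 at 12.5% on day 9 (0.00225). DYRK1A, a relative of DYRK1B, rose by 0.44 at 12.5% on day 6 (0.000530), when 3 of the 18 rose and 2 fell, and 4 rose and 2 fell at 12.5% on day 9.

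Among 30 transcription factors reported to act on these genes, 7 rose and 7 fell without histidine, 8 and 6 at 12.5% on day 6, and 7 and 3 at 12.5% on day 9. Without the keratin-high libraries the day 6 counts were 4 and 4 without histidine and 5 and 2 at 12.5%, and after quantile normalization 10 and 5 and 11 and 5. JUN, an AP-1 factor known to act on CCND1, had 1034 ± 61.8 normalized counts without histidine and 917 ± 45.8 at 12.5%, against 392 ± 49.4 in control medium on day 6, and 898 ± 138 at 12.5% against 291 ± 19.6 on day 9. Its log2 changes were 1.4 (limma, adjusted p = 1.15e-07), 1.23 (2.29e-06) and 1.61 (6.51e-08). ID3, an inhibitor of E proteins, fell by 1.90 (8.22e-08), 1.00 (0.000556) and 0.90 (0.00188), and STAT5A, which is known to act on CCND2 in lymphocytes, fell by 1.37 without histidine (1.06e-06) and by 1.14 at 12.5% on day 9 (3.48e-05). NFKB1 fell by 0.78 at 12.5% on day 6 (1.11e-05). NOTCH1 was at -0.06, -0.08 and -0.13 and did not pass in any of the 3.

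MYC is a factor known to bind the E-box motif, and its part in the CDK4 values was not tested. On day 6 it averaged 15526 ± 1179 normalized counts without histidine and 13348 ± 194 at 12.5%. In control medium of that day it averaged 15772 ± 1327 (SD, n = 3 each). The fall at 12.5% passed limma's test (log2 change -0.24 ± 0.08 SE, adjusted p = 0.0272). It did not pass after upper-quartile rescaling (adjusted p = 0.0995) or quantile normalization (0.365), without any 1 of the libraries at 12.5% (0.0731, 0.0550 and 0.0565 without replicates 1, 2 and 3), without replicate 1 or 3 of the controls (0.162 and 0.0503) or without the keratin-high libraries (0.259).

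Of 23 cyclins and kinases outside the core cycle, 7 rose in each of the 3 comparisons, and 5, 5 and 4 fell. Without the keratin-high libraries 5 rose and 2 fell without histidine, and 6 and 2 at 12.5% on day 6. CCNL1, a cyclin of RNA splicing, had 745 ± 163 normalized counts without histidine and 527 ± 51.8 at 12.5%, against 273 ± 37.9 in control medium on day 6 (log2 changes 1.43 and 0.95, limma, adjusted p = 1.77e-08 and 1.58e-05). CDK18 fell by 1.56 without histidine (6.79e-07), by 0.86 at 12.5% on day 6 (0.00134) and by 1.00 on day 9 (0.000414), with no pass at 12.5% on day 6 without the keratin-high libraries (0.0617). CDK8, a kinase of the Mediator complex, fell by 0.75 without histidine (0.000388) and by 0.77 at 12.5% on day 9 (0.000543).

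The genes next to the 5 were looked at for the same reason as the sequences above, that overlapping transcripts can share reads. TSPAN31, on the other strand, overlaps CDK4 by 2485 bases and holds 38% of its 31-base windows, with 31.8 to 197 normalized counts in the 25 libraries. CCND2-AS1 overlaps CCND2 by 2413 bases on the other strand and holds 1.35% of its windows, and was not found by its symbol among the deposited genes. LTO1 overlaps CCND1 by 1399 bases on the other strand and holds 9.12% of its windows. LTO1 rose by 0.51 without histidine (limma, adjusted p = 0.000139) and by 0.70 at 12.5% on day 9 (7.74e-06). Its change of 0.30 at 12.5% on day 6 (0.0171) did not pass without replicate 2 or 3 of the controls (0.0548 and 0.0510), replicate 1 at 12.5% (0.0892) or the keratin-high libraries (0.144). A readthrough transcript on the strand of CCND2, ENSG00000285901, holds 13.5% of the CCND2 windows, and was at 0 in 24 libraries and at 20.6 in replicate 2 at 50% on day 6, where CCND2 was at 0. This transcript was chosen after its values were seen. Reads of overlapping genes on opposite strands cannot be told apart unless the counting used strand, which the sources used here do not give.

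TIGAR, the gene downstream of CCND2 (chromosome 12, 4307763 to 4354593, plus strand), encodes an enzyme that lowers glycolysis and that p53 is known to raise. It had 379 ± 37.7 normalized counts without histidine and 376 ± 26.5 at 12.5%, against 176 ± 19.7 in control medium on day 6 (log2 changes 1.10 ± 0.16 each, limma, adjusted p = 6.61e-06 and 1.61e-05, n = 3 each). At 25% and 50% it had 251 ± 35.2 (n = 2) and 209 ± 53.8, which did not pass (adjusted p = 0.0528 and 1.0). On day 9 it had 372 ± 41.5 at 12.5% against 229 ± 28.9 at 100% (0.70 ± 0.16, adjusted p = 0.00223). Next to CCND3, BYSL, a factor of ribosome assembly, rose without histidine by 0.75 (4.72e-06) and at 12.5% on day 6 by 0.36 (0.0116), the second not without the keratin-high libraries (0.185). MED20, beyond BYSL, fell by 0.70 (0.000222), 0.61 (0.00116) and, at 12.5% on day 9, 0.55 (0.00381). Of the 19 neighbouring, antisense and copy genes listed, 11 were tested, and without histidine 4 rose and 2 fell, where the shares over the whole table were 13.3% and 16.5%. At both days of 12.5% it was 3 and 1, beside shares of 11.7% and 15.3% on day 6 and of 9.35% and 11.5% on day 9. Some of these calls were lost in other fits.

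SAMD9L, near CDK6, had a log2 change of -0.48 without histidine (limma, adjusted p = 0.0148), but did not pass without replicate 2 of the controls (0.0782), without replicate 2 or 3 of the no-histidine group (0.0666 and 0.109), after upper-quartile rescaling (0.0584) or without the keratin-high libraries (0.237). MARCHF9, near CDK4, had one of 0.28 (0.0226), but did not pass without replicate 3 of the controls (0.122) or of the no-histidine group (0.132). AVIL, also near CDK4, had one of 3.00 at 12.5% on day 9 (0.0194), but did not pass without replicate 2 of the controls (0.180) or replicate 3 at 12.5% (0.0643). PARP11, near CCND2, and TAF8, near CCND3, did not pass in the 3 comparisons, and FGF6 reached at most 8.40 normalized counts and was not tested. CDK6-AS1, antisense to CDK6, had 30.2 to 89.9 normalized counts and the copy CDK4P1 at most 2.76.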

How the data were processed

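Total RNA was extracted with QIAshredder and RNeasy and turned into strand-specific libraries, per the labels' protocols. The values are normalized counts, a signal per gene, which the authors deposited. The submitters' processing notes name kallisto 0.50.1, DESeq2 1.44.0 and FastQC 0.11.9, and the build GRCh38. Which annotation release was used, and whether counting used strand, is not given in the sources used here. Scaling of this kind removes differences in RNA per cell. All 25 columns were matched to libraries by their labels. At the best single step of a library, 37.8% to 76.2% of its values below 20 came within 0.05 of whole multiples, so reads were not recovered, no count test was run, and only normalized totals are known of the depth.

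A pseudocount of 1 was added before log2, which understates changes of low genes, and the 18799 genes past the filter were fitted by limma 3.58.1 (R 4.3.3), using a mean-variance trend, 9 group means and 16 residual degrees of freedom. Two-sided p-values were adjusted by Benjamini-Hochberg over all genes of a comparison, with a threshold of 0.05. They measure only the spread between these samples. From each pathway list and comparison the genes named are up to 3 past the threshold with the largest change, and the neighbours of the 5 genes that the table lists. MYC, NOTCH1, CDKN2A, RRM2, UHRF1 and CCNB2 on day 6 were named after their values were seen. The 5 genes, the lists and the tests were chosen with earlier results of these data known. The no-histidine library with conflicting days was kept at day 6 by its title, and days are those of the sample labels, from which the series text differs.

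Lengths and coordinates came from GENCODE 29, as the longest principal transcript of each gene, and promoters from RefSeq, both on GRCh38, which may differ from the authors' annotation. RefSeq's table has no promoter entry for CCND1 and CCND2. Genes were looked up by symbol, and copies of the 5 genes not matched by symbol were not analysed here. Results were recomputed with other pseudocounts and filters, upper-quartile and quantile scaling, without the mean trend, with weights per library, with a block for the replicate number, on the compared groups alone and without each library in turn, and, added after the data were seen, keratin and 5.8S rRNA covariates and a fit without the keratin-high libraries. Same-numbered libraries of different groups had correlations of their deviations between -0.08 and 0.08, so the numbers were not taken to pair samples. The procedure was tested on simulated data. Python 3.11.15 and matplotlib 3.10.9 drew the figures.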

Additional observations from a re-analysis of the deposited data

Results flagged for a closer look

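Some regulators stood on opposite sides of the controls on the 2 days at the same histidine level, with no overlap of libraries on either day. The 3 genes below were picked by this pattern, and the share of all genes showing it is not given here. Against 100%, libraries did not overlap for 45.0% and 34.8% of all tested genes at 25% on days 6 and 9. At 50% these shares were 8.11% and 17.9%. The 25% group of day 6 and the 50% group of day 9 held 2 libraries each. CDK2 at 25% histidine was above the controls on day 6 and below them on day 9, with a difference of the log2 changes, day 9 minus day 6, of -0.35. CDKN1A at 25% was below the controls on day 6 and above them on day 9, with a difference of 0.62. CDKN1B at 50% was below on day 6 and above on day 9, with a difference of 0.33. None of the 3 differences passed limma's interaction test (adjusted p = 0.938, 0.628 and 0.969), and no explanation was tested.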

How the results depend on the processing

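Of the alternatives run for the log2 changes of the 5 genes, 1782 moved a value by less than the spread between replicates and 31 by more. That spread is the residual SD of the gene. It was 1.51 log2 for CCND2 and 1.29 for CCND1, but 0.12 for CCND3, 0.23 for CDK4 and 0.13 for CDK6. For CCND1 and CCND2 large moves thus count among the 1782, such as CCND2 without histidine with a pseudocount of 8. Many of the 1782 were fixed in advance. Leaving out a library of another group, dropping the mean trend or fitting the compared groups alone cannot move a log2 change. No change that had passed the threshold reversed its direction, though calls were lost. These refits use the libraries on which the 5 genes were chosen. CDK6 at 25% passed in 14 of 38 alternatives on day 9 and in 31 on day 6, CCND3 in 28 between days, CDK4 in 34 at 12.5% and CCND1 in 31 of 37 at 25% on day 9. A pseudocount of 8 gave CCND2 changes of 2.61 without histidine and 2.97 at 12.5% on day 6. The keratin-high libraries moved most. Without them the CCND1 change was 1.28 without histidine, 1.01 at 12.5%, 1.56 at 25% and, at 25% on day 9, 1.64, that of CCND2 was 6.17 and 6.61, that of CDK4 at 50% on day 6 was -0.61, that of CDK6 there 0.12, and the day difference of CCND1 in the controls was -0.044. With the keratin covariate CCND1 was at 1.00 without histidine, 1.60 at 25% on day 6, 1.5 at 25% on day 9 and -0.53 between days. Quantile normalization gave CCND3 changes of -0.18, -0.12 and 0.022 without histidine, at 12.5% and at 50% on day 6 and -0.20 between days, and CDK6 changes of 0.30 and 0.40. Between 12.5% and 25% on day 6 it gave -0.02 for CCND3 (main -0.40) and 0.79 for CDK6 (main 0.63). CCND1 was at 1.33 for 50% on day 6 with library weights and at 1.55 for 25% on day 9 with a pseudocount of 8. Over leave-one-out fits CDK6 at 50% on day 9 lay between -0.35 and -0.053. Genes called without the keratin-high libraries were 3239 without histidine, 2464 at 12.5%, 914 at 25% and 1 at 50% on day 6, 1216 at 25% and 0 at 50% on day 9, and 21 between days, and 38 pathway genes at 12.5% on day 6. The main counts were 5611, 5072, 2577, 0, 3415, 1 and 408 genes, and 65 pathway genes, and fewer samples enter. With library weights 292 genes passed at 50% on day 6, 0 at 50% on day 9, 4967 between no histidine and 12.5% (main 2869) and 1069 between days. A fit of the compared groups gave 1, 0, 1184 and 135. With no filter 2 passed at 50% on day 9 and 266 between days, and quantile normalization, the replicate block and the keratin covariate gave 0 at 50% on day 9. Leaving out 1 library gave 1261 to 2737 genes at 25% on day 6, 0 to 11 at 50% on day 9, 1750 to 3309 between no histidine and 12.5% and 151 to 523 between days, and a group left with 1 library is assumed to vary like the others. Upper-quartile rescaling turned the split of all genes at 12.5% on day 6 to 2851 higher and 2384 lower, where the main fit had 2196 and 2876, without histidine to 3157 and 2786 (main 2503 and 3108) and at 12.5% on day 9 to 2163 and 1940 (main 1758 and 2158). The causes were not tested. Same-numbered libraries did not deviate together, and the replicate block gave 2408 genes at 25% on day 6 and 367 between days. The planned count tests were not run, as whole reads were not recovered, and depth beyond the normalized totals is unknown, which limits CCND1 and CCND2.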
